A study of Mus musculus with 5 samples.

Results

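The 37 genes described here carry out antigen presentation by the major histocompatibility complex (MHC) and the response to interferon. They were chosen by name, as a list of MHC and interferon genes, with earlier results of these data known. They were read from the 47729 genes of the count table by their Ensembl identifiers. The tissue was the right hemisphere of the brain, taken from males of the inbred strain C57BL/6 at 5 months of age, with 5 mRNA libraries in all. No genotype change, treatment or second age was given in the labels, so the 5 samples form 1 group. Genes can therefore be set against other genes inside each brain, and the brains against one another. The labels give each sample a number of its own but do not say that each is a separate mouse. The samples are called animals 1 to 5 here, in an order that carries no meaning, and every p-value rests on the spread between these 5 samples alone, part or all of which may be technical. All 37 genes had at least 1 count, and 36 had enough counts for the test of spread. The exception was Mx1, with a mean of 2.6 counts.

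MHC class I molecules sit on most cell types and show peptides from inside the cell to CD8+ T cells. They consist of a heavy chain paired with beta-2-microglobulin, and their peptides are pumped into the endoplasmic reticulum by the TAP transporter. MHC class II molecules are made mainly by professional antigen-presenting cells and show peptides of ingested proteins to CD4+ T cells. Interferons bind receptors at the cell surface and, through JAK kinases and STAT factors, switch on a large set of interferon-stimulated genes, many of which block steps of virus replication. In the healthy brain both systems are known to run at a low level, with microglia, endothelial cells and macrophages at the borders of the brain among their main sources.

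The libraries held 13184234 to 15570064 counts, and 28276 genes had a count in at least 1 of them. Levels are given as RPKM, the reads of a gene divided by its length and by the depth of the library, recomputed from the counts, with the SD over the 5 animals (n = 5) after the sign ±. The tissue label was checked against cell type markers. The summed level of 6 neuronal markers ran from 1033 to 1094 RPKM, that of 5 oligodendrocyte markers from 748 to 927 and that of 12 microglial markers from 208 to 222. Of the 13 markers of B cells, T cells and neutrophils, Cd4 was the highest at 2.33 ± 0.318 RPKM and the T cell marker Cd3e stood at 0.0676 ± 0.0222. The 8 markers of border macrophages summed to between 7.68 and 9.33. In RNA of whole tissue, fewer cells of a type and less RNA per cell cannot be told apart.

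The promoters of 7 members are printed because they show the sequence elements that are compared between the classes. They are taken from RefSeq (GRCm38.p6), run from 250 bases before to 50 bases after the transcription start, and are written in the direction of the gene. H2-K1 (chr17:34000298-34000597, minus strand) and H2-D1 (chr17:35262844-35263143, plus strand) are the classical class I heavy chain genes, and their capitals mark the kappa-B site GGGGATTCCCC and the response element AGTTTCNNTTCT. In B2m (chr2:122147437-122147736, plus strand), Isg15 (chr4:156200769-156201068, minus strand), Ifit3 (chr19:34583279-34583578, plus strand) and Rsad2 (chr12:26456403-26456702, minus strand) the capitals mark the core of the interferon-stimulated response element, GAAANNGAAA, on either strand. In the class II gene H2-Aa (chr17:34287774-34288073, minus strand) the capitals mark a CCAAT box, here on the opposite strand.
H2-K1: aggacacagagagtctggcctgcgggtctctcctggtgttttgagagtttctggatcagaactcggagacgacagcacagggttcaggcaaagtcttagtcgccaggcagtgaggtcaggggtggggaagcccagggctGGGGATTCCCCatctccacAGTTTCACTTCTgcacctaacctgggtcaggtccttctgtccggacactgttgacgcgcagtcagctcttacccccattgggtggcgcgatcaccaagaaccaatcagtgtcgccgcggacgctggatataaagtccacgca
H2-D1: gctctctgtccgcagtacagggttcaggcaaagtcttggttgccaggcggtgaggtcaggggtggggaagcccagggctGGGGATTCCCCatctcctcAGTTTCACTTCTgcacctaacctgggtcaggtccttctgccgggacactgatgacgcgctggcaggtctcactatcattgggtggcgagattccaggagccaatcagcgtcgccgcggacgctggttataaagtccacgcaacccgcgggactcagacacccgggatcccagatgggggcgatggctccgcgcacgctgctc
B2m: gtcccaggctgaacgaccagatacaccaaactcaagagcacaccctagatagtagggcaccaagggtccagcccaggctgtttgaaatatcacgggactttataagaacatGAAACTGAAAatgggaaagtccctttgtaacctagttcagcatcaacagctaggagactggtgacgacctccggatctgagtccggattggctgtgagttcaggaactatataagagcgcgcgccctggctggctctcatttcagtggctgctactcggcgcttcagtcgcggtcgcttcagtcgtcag
H2-Aa: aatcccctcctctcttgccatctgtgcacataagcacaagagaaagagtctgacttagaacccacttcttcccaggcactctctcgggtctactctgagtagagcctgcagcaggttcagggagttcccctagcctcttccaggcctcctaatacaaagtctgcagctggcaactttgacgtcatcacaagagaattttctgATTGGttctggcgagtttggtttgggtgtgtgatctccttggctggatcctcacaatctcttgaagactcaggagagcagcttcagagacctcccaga
Isg15: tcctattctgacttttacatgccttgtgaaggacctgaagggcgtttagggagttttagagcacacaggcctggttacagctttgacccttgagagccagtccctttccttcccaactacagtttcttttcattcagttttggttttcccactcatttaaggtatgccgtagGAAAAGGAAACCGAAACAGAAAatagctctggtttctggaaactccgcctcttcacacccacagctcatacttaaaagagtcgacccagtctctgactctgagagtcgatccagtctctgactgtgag
Ifit3: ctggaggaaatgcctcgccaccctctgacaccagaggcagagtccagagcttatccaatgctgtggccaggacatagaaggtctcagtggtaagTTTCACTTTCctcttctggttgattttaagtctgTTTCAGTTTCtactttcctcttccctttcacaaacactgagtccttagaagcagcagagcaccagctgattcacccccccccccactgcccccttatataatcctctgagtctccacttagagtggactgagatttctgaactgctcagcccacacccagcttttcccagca
Rsad2: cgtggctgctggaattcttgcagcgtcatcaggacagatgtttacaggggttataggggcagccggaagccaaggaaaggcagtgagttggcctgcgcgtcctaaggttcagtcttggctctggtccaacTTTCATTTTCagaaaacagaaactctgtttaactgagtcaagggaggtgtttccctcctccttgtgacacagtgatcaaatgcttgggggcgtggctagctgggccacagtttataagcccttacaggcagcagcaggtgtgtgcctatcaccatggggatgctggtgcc

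RefSeq promoters of this length were matched to 28 of the 37 members, that is to all but Tap2, Nlrc5, H2-Ab1, Cd74, Ciita, Ifi27, Usp18, Mx1 and Parp14. Both strands were searched, and matches to 1 motif could overlap. GAAANNGAAA was present in 13 of the 28 members and in 3.44% of all 32851 promoters. By class it was found in 2 of 6 class I members (B2m and H2-T23), in 0 of 2 class II members and in 8 of 11 interferon-stimulated effectors (Ifit1, Ifit3, Ifitm2, Ifitm3, Isg15, Bst2, Rsad2 and Trim30a). It was also found in 3 of 9 sensors, receptors and transcription factors (Ddx58, Ifih1 and Stat2). Isg15 held 3 overlapping matches, and Ifit3 held 2.

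CCAAT, the letters read by the factor NF-Y, was present in all 6 class I and both class II members with a promoter, in 4 of the 11 effectors and 2 of the 9 sensors and factors, and in 37.4% of all promoters. H2-K1 and H2-D1 also both held GGGGATTCCCC, which was found in 10 of all promoters (0.0304%), and AGTTTCNNTTCT, found in 78 (0.237%). These 2 motifs were chosen after the sequences had been seen. The longest run of identical bases shared by the H2-K1 and H2-D1 promoters was 47 bases. TTCNNNGAA, the core of the gamma-activated sequence bound by STAT dimers, was found in Ifit2, Ifitm3, Ifi35, Bst2, Ifnar1, Ifnar2 and Irf1 and in 8.30% of all promoters. A match describes the letters in this window only.

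Class I genes had the highest median level of the 4 classes, class II genes lay below them, and the interferon-stimulated effectors were lower still. The median RPKM over the members of a class was taken in each animal. It was 4.83 ± 0.323 for the 8 class I genes and 2.79 ± 0.536 for the 5 class II genes. For the 15 effectors it was 1.58 ± 0.227, and for the 9 sensors, receptors and transcription factors it was 2.06 ± 0.0928. The class I median lay between 4.45 and 5.10 in the 5 animals, above the highest class II median (3.46). The class II medians (2.09 to 3.46) lay above those of the effectors (1.32 to 1.93) and overlapped those of the sensors and factors (1.95 to 2.20). No test is given for these medians, since the members were chosen with earlier results of these data known. The step from class II to the effectors depends on gene length. With the union of annotated exons in place of the length recovered from the deposited tables, the class II median was 1.59, next to 1.58 for the effectors. The range within each class was wider than the steps between classes, as the plot of levels by animal shows, from 0.187 to 107 RPKM in class I alone.

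**Figure D1:**
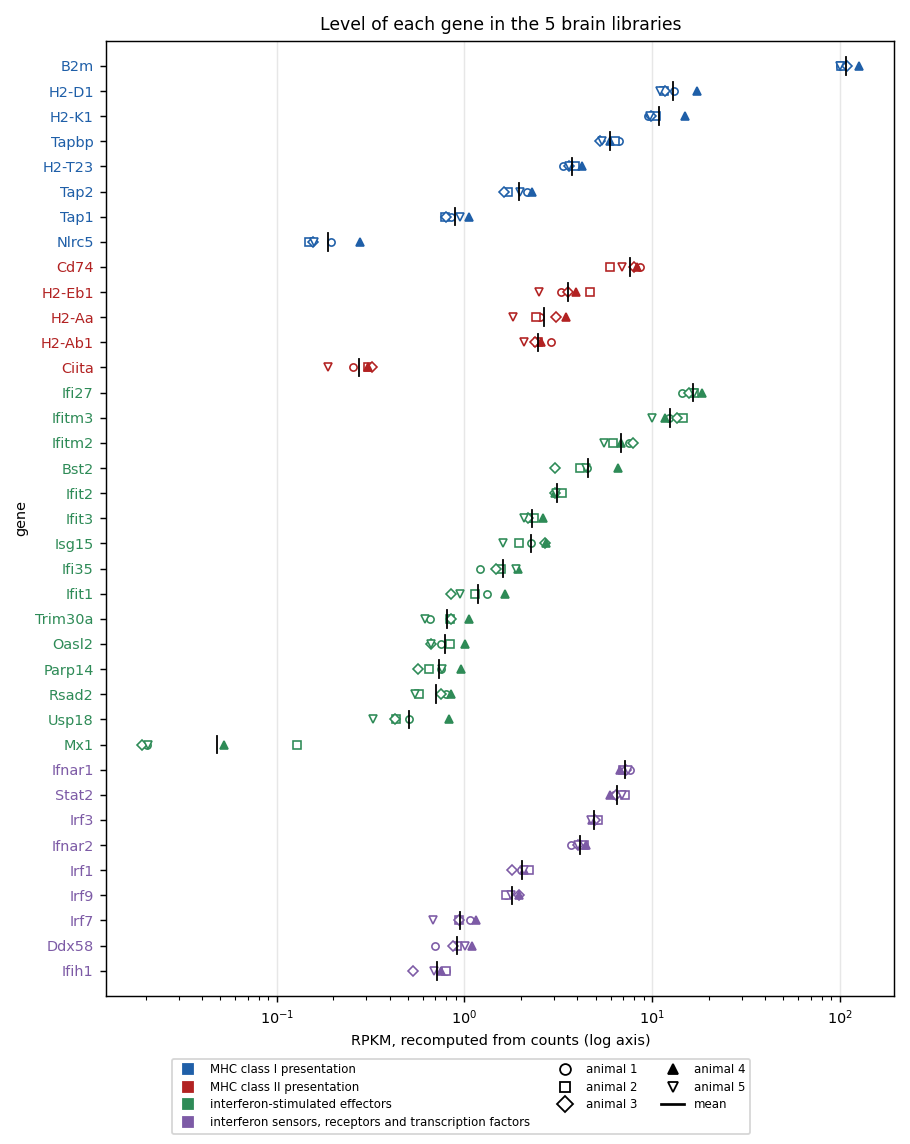
Level of each of the 37 genes in each of the 5 animals, in RPKM on a log axis, grouped by class with the mean as a vertical bar and animal 4 filled. B2m stands at 107 RPKM and Mx1 at 0.0482, and the filled triangle of animal 4 lies at the right end of most rows of class I and of the effectors.

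B2m (ENSMUSG00000060802, GRCm38 chromosome 2, 122147686 to 122153083) encodes beta-2-microglobulin, the light chain of every class I molecule, and was the most abundant member by far. It stood at 99.7, 102, 109, 126 and 100.1 RPKM in animals 1 to 5, with a mean of 107 ± 11 that ranked 308 among the 28276 detected genes. Animal 4 was the highest and the other animals lay close together. The classical heavy chain gene H2-D1 (ENSMUSG00000073411, chromosome 17, 35262730 to 35267499) stood at 13.1, 11.6, 11.8, 17.4 and 11 RPKM. The other classical heavy chain gene, H2-K1 (ENSMUSG00000061232, chromosome 17, 33996017 to 34000347), stood at 9.46, 10.5, 9.91, 14.9 and 9.71. Both heavy chain genes were highest in animal 4, well above every other animal. H2-T23, which encodes the Qa-1 heavy chain read by receptors of natural killer cells, had a lower mean of 3.73 ± 0.343 and was also highest in animal 4, at 4.25 RPKM. Words of 50 bases were shared with other annotated transcripts to 9.04% in H2-K1, 15.6% in H2-D1 and 16.9% in H2-T23, so a small part of their reads may be split among MHC genes.

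Of the genes dedicated to loading peptide onto class I molecules, Tapbp lay above H2-T23 and below the classical heavy chain genes, and the transporter genes lay below all of these. Tapbp, the tapasin that bridges the transporter and the heavy chain, had 5.94 ± 0.586 RPKM and was the 1 class I gene whose highest value lay in animal 1 (6.69). The transporter subunits Tap1 and Tap2 had 0.885 ± 0.113 and 1.94 ± 0.281. Their exons overlap genes on the other strand to 3.87% and 18.5%, and those of Tapbp to 24.9%, and the strand setting of the counting is not given in the sources used here. Nlrc5, the transactivator of class I genes, was the lowest of the class at 0.187 ± 0.0533 RPKM (16 to 33 counts per library).

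Within each animal, B2m exceeded H2-D1 by 8.29-fold (log2 ratio of RPKM plus 0.1, 3.05 ± 0.16). H2-D1 exceeded H2-T23 by 3.38-fold and H2-K1 by 1.19-fold (log2 ratio 0.25 ± 0.13), a small difference that had the same sign in 5 of 5 animals. Tapbp exceeded Tap1 by 6.14-fold, and Tap1 lay below Tap2 (log2 ratio -1.05 ± 0.12). The exact two-sided test that flips the signs of the 5 ratios gave p = 0.0625 for each of these pairs. That is the smallest p it can give with 5 animals, so 0.05 is out of reach. After adjustment over all 23 pairs the value was 0.0685.

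The class II genes were led by Cd74 and had the widest median range between animals of the 4 classes (1.63-fold). Cd74, the invariant chain that guards the class II groove until peptide is loaded, stood at 8.59, 5.96, 8.04, 8.34 and 6.94 RPKM in animals 1 to 5 (mean 7.57 ± 1.10). H2-Aa (ENSMUSG00000036594, chromosome 17, 34282744 to 34287823), the alpha chain of the I-A molecule, stood at 2.51, 2.4, 3.08, 3.46 and 1.82 RPKM. Animal 4 was its highest and animal 5 its lowest. H2-Ab1, the I-A beta chain, had 2.47 ± 0.287. H2-Eb1, the beta chain of the I-E molecule, stood at 3.28, 4.65, 3.57, 3.91 and 2.50 RPKM, highest in animal 2. C57BL/6 mice are known to make no I-E molecule because the promoter of the I-E alpha gene is deleted. That gene, annotated as H2-Ea-ps, had a count of 0 in all 5 libraries. Taken alone, a 0 in 1 library allows up to 3 expected counts, and the 5 together allow fewer per library. Ciita, the master transactivator of class II genes, was low at 0.275 ± 0.055 RPKM (13 to 25 counts per library).

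The I-A chain genes, whose products pair as equal partners, did not hold 1 order. H2-Ab1 was above H2-Aa in 3 of 5 animals (log2 ratio -0.077 ± 0.30, exact two-sided p = 0.625), and the sign of the mean turned without animal 4 (0.010) and with the annotated exon union as length (0.27). H2-Ab1 lay below H2-Eb1 in 5 of 5 animals (log2 ratio -0.50 ± 0.29). Cd74 exceeded H2-Ab1 by 2.98-fold in the same animals (log2 ratio 1.57 ± 0.20). Across the classes, H2-D1 exceeded H2-Ab1 by 5.05-fold and B2m exceeded Cd74 by 14.1-fold, each in 5 of 5 animals (exact p = 0.0625). The transactivator Nlrc5 lay below Ciita by a log2 ratio of -0.39 ± 0.30 in all 5 animals, a ratio that turned to 0.086 with the exon union as length. The recovered length of Ciita was 5258 bases against an exon union of 9535, and that of H2-Aa 1874 against 3798.

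The 15 interferon-stimulated effectors spread from 0.0482 to 16.4 RPKM. Ifi27, a small membrane protein gene that responds strongly to type I interferon, was the most abundant, at 14.4, 16.7, 15.7, 18.5 and 16.8 RPKM (mean 16.4 ± 1.51). Ifitm3 and Ifitm2, whose products hinder the fusion of virus and cell membranes, followed with 12.5 ± 1.80 and 6.80 ± 0.936. Ifitm2 shares 48.4% of its sequence with other transcripts and 40.9% of its exon bases with another gene on its strand, so its level and the 1.82-fold excess of Ifitm3 over it are uncertain. Bst2 (ENSMUSG00000046718, chromosome 8, 71534255 to 71537456), the tetherin that holds budding virus particles on the cell, stood at 4.50, 4.13, 3.04, 6.56 and 4.47 RPKM. Animal 4 was its highest and animal 3 its lowest, a range of 2.08-fold.

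The Ifit genes, whose products bind foreign RNA and block its translation, differed in the width of their range between animals. Ifit2 (ENSMUSG00000045932, chromosome 19, 34550694 to 34576419) was among the steadiest members, with 3.04, 3.32, 3.03, 3.04 and 3.09 RPKM. Its neighbour Ifit1 stood at 1.32, 1.14, 0.848, 1.64 and 0.942, highest in animal 4 and lowest in animal 3. Ifit1 had only 32 to 68 counts per library, against 160 to 194 for Ifit2. The spread of Ifit1 did not pass the threshold (edgeR quasi-likelihood adjusted p = 0.956) and was not tested against that of Ifit2. Ifit3 had 2.29 ± 0.203 RPKM, but shares 51.5% of its sequence with other transcripts, mainly its copy Ifit3b. Ifit2 exceeded Ifit1 by 2.57-fold and Ifit3 exceeded it by 1.91-fold, both in 5 of 5 animals (exact p = 0.0625).

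Isg15, a ubiquitin-like modifier attached to target proteins, had 2.25 ± 0.481 RPKM (16 to 32 counts per library). Usp18, the protease that removes it and also restrains the interferon receptor, stood at 0.509, 0.433, 0.429, 0.829 and 0.326 RPKM. Its highest animal was animal 4 and its range of 2.34-fold was the widest of the tested members, on 12 to 36 counts. Isg15 exceeded Usp18 by 3.95-fold and lay below Ifi27, which exceeded it by 7.13-fold. Ifi35 had 1.61 ± 0.302 RPKM, with 16.8% of its exon bases overlapped on the other strand.

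The remaining effectors had means below 1 RPKM. Trim30a, a TRIM protein that restrains NF-kappa-B signalling, had 0.804 ± 0.176, and the oligoadenylate synthetase-like gene Oasl2 had 0.784 ± 0.143. Parp14, an ADP-ribosyltransferase, had 0.736 ± 0.147, and Rsad2, which encodes the antiviral enzyme viperin, 0.701 ± 0.135. All of these were highest in animal 4, at 1.06, 1.01, 0.959 and 0.846 RPKM. Bst2 exceeded Rsad2 by 5.69-fold in 5 of 5 animals. Mx1, a dynamin-like antiviral protein that C57BL/6 mice are known to carry in a disrupted form, had 1, 7, 1, 3 and 1 counts and a mean of 0.0482 ± 0.0469 RPKM. Oasl2 lay above it in 5 of 5 animals, but that ratio of 6.11-fold rests on the value of 0.1 added to each RPKM.

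The receptors, sensors and transcription factors that start the response had a narrower median range between animals (1.20-fold) than the effectors (1.54-fold). This difference was not tested and was not adjusted for the number of counts. The interferon receptor chains Ifnar1 and Ifnar2 had 7.20 ± 0.354 and 4.11 ± 0.299 RPKM, and Ifnar1 exceeded Ifnar2 by 1.74-fold (log2 ratio 0.80 ± 0.17). Irf3, the factor that is present before infection and is switched on by phosphorylation, stood at 5.04, 5.11, 4.93, 4.76 and 4.74 RPKM. Its range of 1.07-fold was the narrowest of the 36 tested members. Irf7, the factor that is itself induced by interferon, had 0.951 ± 0.178 and ranged 1.65-fold, from 0.678 in animal 5 to 1.15 in animal 4. Irf7 had 27 to 54 counts per library, against 215 to 262 for Irf3, and their ranges were not compared by a test. Irf3 exceeded Irf7 by 4.83-fold, and Irf1, an early interferon-induced factor, exceeded it by 2.05-fold, both in 5 of 5 animals. Irf1 itself had 2.03 ± 0.151.

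Stat2 and Irf9, subunits of the factor that binds the interferon-stimulated response element, had 6.53 ± 0.481 and 1.80 ± 0.146 RPKM. Irf9 lay below Stat2 by a log2 ratio of -1.80 ± 0.19 in 5 of 5 animals. The RNA sensors Ddx58 (RIG-I) and Ifih1 (MDA5), which detect viral RNA in the cytoplasm, were lower at 0.916 ± 0.148 and 0.712 ± 0.109. Ddx58 was above Ifih1 in 4 of 5 animals, with animal 1 the exception (log2 ratio of Ifih1 to Ddx58 -0.32 ± 0.31, exact two-sided p = 0.125, adjusted 0.131). In the plot of within-animal ratios, 21 of the 23 pairs lie on 1 side of 0 in all 5 animals.

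**Figure D2:**
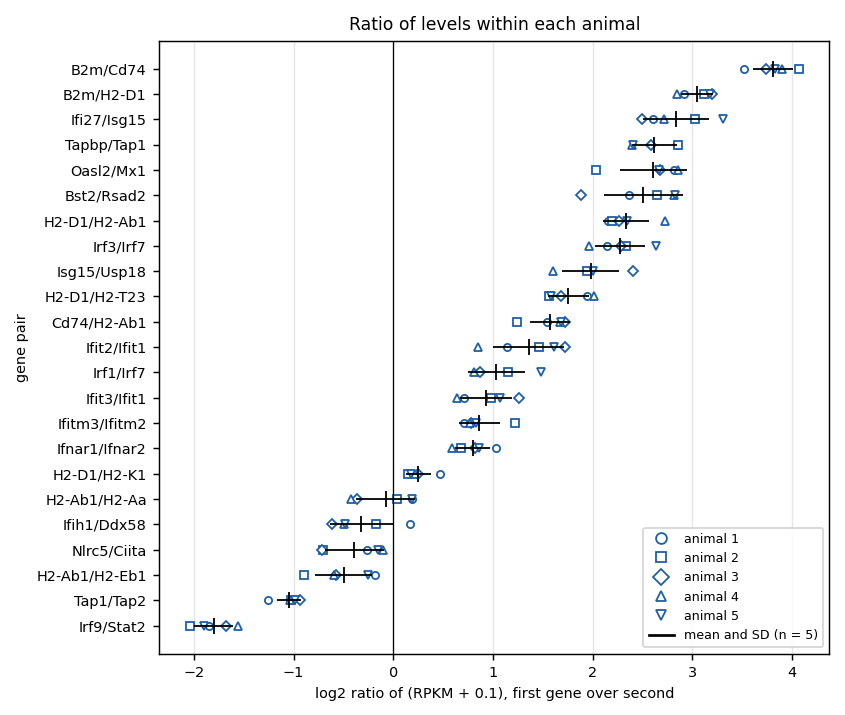
Log2 ratio of (RPKM + 0.1) of the first gene over the second within each animal for the 23 pairs, with the mean and SD (n = 5) in black. H2-Ab1/H2-Aa and Ifih1/Ddx58 are the 2 pairs whose points lie on both sides of 0, and B2m/Cd74 has the highest mean, at 3.81.

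No member passed the threshold for a larger spread between the animals than genes of like abundance, once all genes were taken into account. In edgeR's quasi-likelihood fit, each gene's dispersion was compared with the abundance trend, with Benjamini-Hochberg adjustment over 14770 genes. Of the 36 members tested, 0 passed an adjusted p of 0.05, against 0.305% of all genes tested. At an unadjusted p of 0.05 the number was 5 (H2-K1, H2-D1, B2m, H2-Aa and Bst2), against 5.43% of all genes. H2-D1 had the smallest adjusted p of the members at 0.0929 (dispersion 9.92 times the trend, range 1.58-fold), followed by H2-K1 at 0.119 (9.19 times, 1.56-fold) and B2m at 0.595 (4.63 times, 1.26-fold). H2-Aa and Bst2 had adjusted p-values of 0.911 and 0.916.

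The heavy chain genes sat near the threshold, and other settings moved them across it or further away. With no filter on low counts, which takes in 28276 genes and calls 0.881% of them, edgeR's adjusted p was 3.3e-05 for H2-D1 and 9.6e-05 for H2-K1. DESeq2 marked the same 2 members as dispersion outliers, against 0.684% of all genes. With limma 0 members passed, against 0.0677% of all genes on recomputed RPKM and 0.183% on deposited RPKM. Limma's adjusted p for H2-D1 and H2-K1 was 0.630 and 0.681 on recomputed RPKM, and 0.265 and 0.301 on deposited RPKM. With a prior that is not robust, edgeR's adjusted p was 0.211 and 0.260. Without animal 4 their ratio to the trend in edgeR fell to 1.47 for H2-D1 and 0.319 for H2-K1, with adjusted p-values of 0.996 and 0.998. The spread of both thus rested on that animal. It was the highest for both, and leaving out the highest value narrows a spread, so the fall restates their levels by animal.

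The median range between animals was 1.47-fold over the 36 tested members and 1.19-fold over all 14770 genes. Genes within the members' abundance range had a median of 1.21-fold. That range was wide, from 0.655 to 6.53 log2 CPM with 11437 genes, so these genes were not matched to the members in abundance. Ranges were not adjusted for counting error, which is larger in genes with few counts. By class the median range was 1.37-fold for class I, 1.63-fold for class II, 1.54-fold for the effectors and 1.20-fold for the sensors, receptors and factors. Without animal 4 it was 1.20-fold, 1.63-fold, 1.42-fold and 1.19-fold in the same order, and 1.16-fold over all genes. Leaving out an animal can only narrow the range of a gene that was highest or lowest in it. Animal 4 was highest for 7 of 8 class I genes and 1 of 5 class II genes. The changes by class therefore restate where the highest values lay.

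Most class I genes and effectors had their highest value in the same animal. On log2 CPM (counts scaled to library depth by TMM), 22 of the 36 members were highest in animal 4 (61.1%), against 20.9% of all genes tested and 21.7% of genes in the members' abundance range. The number was 7 of 8 for class I, 11 of 14 for the effectors, 3 of 9 for the sensors and factors and 1 of 5 for class II. The mean log2 deviation of animal 4 from the mean of the animals was 0.30 for class I, 0.29 for the effectors, 0.18 for class II and 0.072 for the sensors and factors. The exceptions among class I and the effectors were Tapbp, Ifit2, Ifitm2 and Ifitm3. The summed class I level was 172 RPKM in animal 4 and 133 to 142 in the other animals, of which B2m made up the greater part. All 5 class II genes also lay above their own mean in animal 4. In animal 5, 16 of the 36 members were lowest, against 23% of all genes tested. These were 4 of 5 class II genes (mean deviation -0.36), 8 of 14 effectors (-0.17), 2 of 8 class I genes (-0.086) and 2 of 9 sensors and factors (-0.031).

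**Figure D3:**
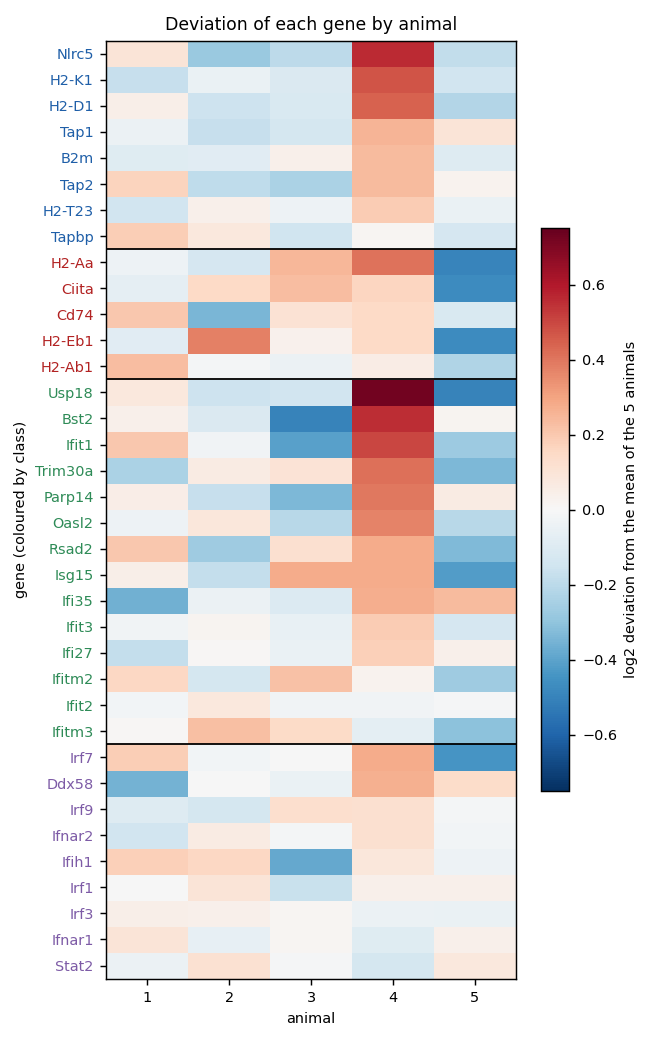
Log2 deviation of each of the 36 tested genes (rows, grouped by class) from its mean over the 5 animals (columns), from TMM-scaled log2 CPM. Red in the column of animal 4 covers all 8 class I rows, faintly in Tapbp, and most effectors, whereas Irf3, Ifnar1 and Stat2 at the bottom stay pale.

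Other genes also stood high in animal 4. All 5 oligodendrocyte markers were highest there, with a summed level of 927 RPKM against 748 to 784 in the other animals and a mean log2 deviation of 0.20. Mbp, the gene of myelin basic protein, had 336 RPKM in animal 4. The microglial markers were highest in animal 4 for 4 of 12 genes, with a sum of 222 against 208 to 213 and a mean deviation of 0.064. The astrocyte sum was 255 against 227 to 245, and that of 8 endothelial markers 92.9 against 83.7 to 91.0. The border macrophage list had 0 of 6 tested genes highest in animal 4 and a mean deviation of -0.16. The 8 dendritic cell markers summed to 7.36 RPKM in animal 4 and to 6.73 to 7.12 in the others. Flt3 (2.19 ± 0.266), Siglech (2.18 ± 0.148) and Zbtb46 (1.83 ± 0.143) made up most of this sum, while Xcr1, Itgax and Clec9a had means of 0.0032, 0.099 and 0.111. The 13 markers of B cells, T cells and neutrophils summed to 6.89 in animal 4, within the range of 4.49 to 7.13 of the other animals. Red blood cell genes, all 5 of which were called more variable, summed to 236 RPKM in animal 3, their highest, and to 62.2 in animal 5, their lowest. Slc6a5, the glycine transporter of brainstem neurons, which was named after its values were seen, had a log2 deviation of 2.55 in animal 4 and -1.79 in animal 5. The part of any of these in the values of the members was not tested.

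**Figure D4:**
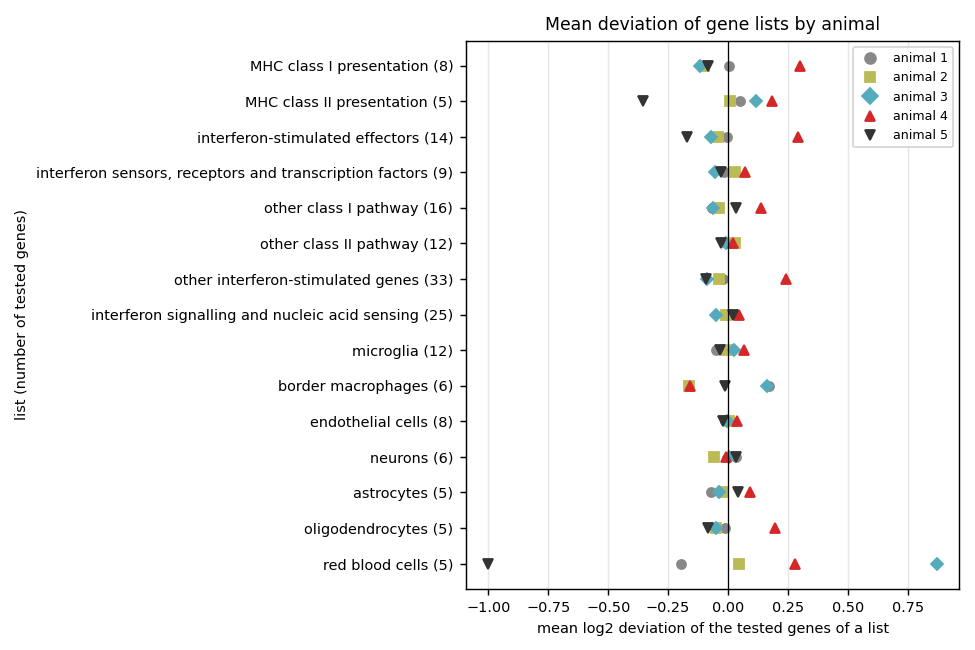
Mean log2 deviation of the tested genes of each list (vertical axis, number of genes in brackets) in each animal. Animal 4, the red triangle, lies at 0.30 for class I and 0.29 for the effectors, at 0.20 for oligodendrocytes and at 0.064 for microglia, and red blood cell genes spread from -1.0 in animal 5 to 0.87 in animal 3.

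Further genes of the same pathways gave a mixed picture. Over all genes tested, the shares to set beside their counts are 0.305% called, 5.43% at an unadjusted p of 0.05 and 20.9% highest in animal 4. Of 21 other class I pathway genes 16 were tested, 0 were called and 9 were highest in animal 4 (mean deviation 0.14). The most abundant were the chaperones Calr (129 ± 6.06 RPKM), Canx (109 ± 4.78) and Pdia3 (71.8 ± 5.31), which fold many proteins besides class I, and the immunoproteasome subunit Psmb10 (25.8 ± 1.77). That list also holds H2-Ke6, a steroid dehydrogenase gene that lies in the MHC but does not present antigen and was too low to be tested. Of 17 other class II pathway genes 12 were tested, 0 were called and 5 were highest in animal 4 (mean deviation 0.019). It was led by the lysosomal proteases Lgmn (49.2 ± 2.09) and Ctss (45.7 ± 2.13), the promoter factor gene Rfxap (11.2 ± 0.384) and the NF-Y subunit gene Nfyb (8.89 ± 0.174).

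Of 52 other interferon-stimulated genes 33 were tested, 0 were called, and 16 were highest in animal 4 (mean deviation 0.24). Ly6e (41.5 ± 1.36 RPKM), a lipid-anchored surface protein that limits infection by coronaviruses, the RNA-editing enzyme Adar (21.4 ± 1.22), the nucleotide kinase Cmpk2 (9.02 ± 0.389) and Lgals3bp (7.45 ± 0.338) were the most abundant. The 5 of 33 that passed an unadjusted p of 0.05, against 5.43% of all genes, were all GTPases of the guanylate-binding and immunity-related families (Gbp2, Gbp4, Gbp5, Irgm2 and Igtp) and were named after their values were seen. These GTPases are strongly induced by interferon gamma and attack the vacuoles of intracellular pathogens. Gbp2 stood at 1.43, 1.36, 1.43, 2.71 and 1.21 RPKM in animals 1 to 5 (edgeR quasi-likelihood adjusted p = 0.413). Gbp4 stood at 0.259, 0.233, 0.122, 0.463 and 0.111 (adjusted p = 0.170) and Irgm2 at 1.07, 0.892, 1.30, 2.04 and 0.945 (adjusted p = 0.298). Animal 4 was the highest for all 5, and none passed the adjusted threshold.

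Of 30 further genes of interferon signalling and nucleic acid sensing 25 were tested, 0 were called and 8 were highest in animal 4 (mean deviation 0.044). The phosphatase gene Ptpn11 (36.6 ± 0.804 RPKM), the receptor kinase gene Jak1 (29.1 ± 1.29), the kinase gene Tbk1 (17.6 ± 1.4), which phosphorylates Irf3, and Irf2bp1 (15.8 ± 0.788), a corepressor of Irf2, led the list. Trex1, a DNA-degrading exonuclease gene, had a count of 0 in all libraries and shares 95.9% of its sequence with other transcripts, so this 0 says little about its level. Of 11 interferon ligand genes, Ifnb1, Ifna1, Ifna2, Ifna4, Ifna5, Ifnl2 and Ifnl3 had a count of 0 in all 5 libraries. Taken alone, a 0 in 1 library allows up to 3 expected counts, and the 5 together allow fewer per library. The other 4 ligand genes had at most 2 counts in any library, among them Ifng, the gene of interferon gamma, with 1 count in animal 2. Sequence shared with other transcripts, which can lower a count, reached 67.6% in Ifna1, 51.4% in Ifna5, 39.3% in Ifnl3, 32.1% in Ifnl2 and 75.3% in Ifnz, so the low counts of these genes say little about their levels.

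The interferon-stimulated response element was set beside the pattern of animal 4. Of the 13 members whose promoter holds GAAANNGAAA, 9 were highest in animal 4, and of the 15 tested members whose promoter does not, 8 were. Over all genes tested the share was 20.9%. H2-K1 and H2-D1 were both among the latter. Their promoters lack GAAANNGAAA but hold AGTTTCNNTTCT, known as the interferon response element of class I genes, beside the kappa-B site, so the 15 are not genes without any interferon element. Isg15, Ifit3, Rsad2 and B2m, printed with the element in capitals, were all highest in animal 4, at 2.72, 2.61, 0.846 and 126 RPKM. The other genes with a printed promoter, H2-K1, H2-D1 and H2-Aa, were highest there too, so the printed promoters do not stand for all members. The class II gene H2-Eb1, not printed, also holds CCAAT and was highest in animal 2. Ifitm2, highest in animal 3, Ifitm3 and Stat2, highest in animal 2, and Ifih1, highest in animal 1, also hold the element. No test was made of this comparison.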

How the data were processed

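RNA of 5 right brain hemispheres was sequenced with an mRNA kit, per the labels' protocols. CASAVA 1.7, STAR 2.4.1d and featureCounts 1.4.6-p4 with build GRCm38 were used, per the submitters' processing notes. For the annotation release, the strand setting and reads that match several places, nothing is given in the sources used here. The authors deposited whole-number counts per Ensembl gene, not normalized, and an RPKM table made from them.

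In the RPKM deposited by the authors, the 5 library totals had been taken in turn down the table. This rule recovered 100.0% of nonzero entries (tolerance 0.0011 RPKM plus a relative 0.0002). Each library's own total recovered 21.2%, a share nearly fixed in advance because the gene lengths were fitted under the first rule. The length that each library implied for a gene varied by 0.00178% under the first rule and by 10.7% under own totals (SD over mean, median of 7363 genes). By the first rule, 80.0% of entries used another library's total (totals differ by up to 1.18-fold). RPKM was therefore recomputed from the counts with own totals and the gene length recovered from both tables.

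Symbols came from GENCODE M21 (47310 of 47729 identifiers, all 250 listed symbols matched, Mb21d1 through its synonym Cgas). The counts entered edgeR 4.0.16 under R 4.3.3 (filterByExpr, TMM, robust glmQLFit with legacy settings, intercept only). The ratio of quasi-dispersion to trend was compared with an F distribution on 4 and 15.29 degrees of freedom, upper tail, Benjamini-Hochberg threshold 0.05, which called 45 of 14770 genes, 802 unadjusted. Log2 CPM used a prior count of 2. The script was tested on simulated data. Alternatives used DESeq2 1.42.0 and limma 3.58.1. In 23 gene pairs, log2 ratios of RPKM with 0.1 added were tested exactly and two-sided over the 32 patterns of their signs. Shared sequence is the percentage of words of 50 bases, taken every 5 bases of a gene's transcripts, found in other genes. Depth was 13184234 to 15570064 counts, and floors cover counting error only, since the reads carry no molecular identifiers and so are not independent molecules.

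The members, lists, pairs and tests were chosen with earlier results of these data known. Genes named are all members, the 4 most abundant of each further pathway list and those at 0, and leading or defining markers of cell type lists. Others are said to be named after their values were seen.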

Additional observations from a re-analysis of the deposited data

Results flagged for a closer look

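In 6 of 114 sets of 5 values, the gap between 1 animal and the next made up more than 0.71 of the whole range. The sets were the members, abundant or variable genes of the other lists, the class medians and the gene pairs. Chance flags about 1 in 20 groups that are independent and not chosen by their values. That rate cannot be applied here, because some genes entered for being variable. The medians and pairs also reuse genes that form sets of their own. Whether the number flagged differs from chance was therefore not tested. H2-K1 stood at 14.9 RPKM in animal 4 and at 9.46 to 10.5 in the other animals. Gbp2 stood at 2.71 RPKM in animal 4 and at 1.21 to 1.43 in the others. Ifit2 stood at 3.32 RPKM in animal 2 and at 3.03 to 3.09 in the others, so that a steady gene was singled out by a small gap. Ifng stood at 0.0553 RPKM in animal 2, which is 1 count, and at 0 in the others. The log2 ratio of Ifitm3 to Ifitm2 was 1.23 in animal 2 and 0.71 to 0.83 in the others. The log2 ratio of Oasl2 to Mx1 was 2.03 in animal 2 and 2.67 to 2.86 in the others, on 7 counts of Mx1 in that animal.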

How the results depend on the processing

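The count of genes called more variable (45) was 249 with no filter on low counts, 101 as DESeq2 dispersion outliers, 27 and 10 with limma on deposited and recomputed RPKM, 19 with a prior that is not robust, and 18 to 44 with 1 animal left out (26 without animal 3, 18 without animal 5). The count of members called (0) was 2 with no filter and 2 with DESeq2, in both cases H2-K1 and H2-D1, and 0 in all other settings. Of 396 values of member spread under the alternatives, 392 kept their side of the threshold, and the other 4 belong to these genes. With the union of annotated exons as length, the log2 ratio of Nlrc5 to Ciita turned to 0.086 and that of H2-Ab1 to H2-Aa to 0.27, and the class II median was 1.59 RPKM. The ratio of H2-Ab1 to H2-Aa ran from -0.14 to 0.010 with 1 animal left out, the latter without animal 4. The effector median was 1.87 RPKM over members with a mean count of at least 10 and 1.16 over members sharing under 20% of their sequence. The causes were not tested beyond the change of length or of members itself.

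The count of 22 of 36 members highest in animal 4 was recomputed under settings chosen after seeing the data. It was 23 on CPM by library totals, 22 with DESeq2 size factors, 22 on deposited RPKM, 21 of 34 without members of shared sequence, and 22 to 24 without any 1 of the other animals. Among members with a mean count of at least 50 it was 14 of 27. No paired analysis was possible because the labels give 1 group. Depth limits Mx1, Nlrc5, Ciita, Usp18 and Isg15, whose libraries hold at most 36 counts each.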

Other observations

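The lowest ratios of dispersion to trend among the members were those of Ifit2 (0.126), Irf3 (0.160), Ifit3 (0.334) and Irf1 (0.415), beside a median of 0.875 over all genes tested. No test of a difference between these ratios was made. The median ratio was 0.872 over the 9 sensors, receptors and factors, 1.66 over class I, 2.18 over class II and 1.68 over the effectors. Among the further lists it was 1.14 for other class I pathway genes, 0.745 for other class II pathway genes and 1.13 for other interferon-stimulated genes.

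The endosomal RNA sensor gene Tlr7 was lowest in animal 4, but only slightly below the next values up (0.582 against 0.622 and 0.625 RPKM). It stood at 0.622, 0.625, 0.983, 0.582 and 1.38 RPKM in animals 1 to 5, highest in animal 5 and lowest in animal 4 (edgeR quasi-likelihood unadjusted p = 0.00468, adjusted p = 0.380). Irf8, a factor of microglia and other myeloid cells, stood at 1.24, 0.857, 0.799, 1.09 and 0.731, highest in animal 1 (unadjusted p = 0.0314, adjusted p = 0.837). The immunoproteasome subunit Psmb9 stood at 0.633, 0.459, 0.250, 0.737 and 0.560, highest in animal 4 (unadjusted p = 0.0301, adjusted p = 0.830). These genes were named after their values were seen, and none passed the adjusted threshold.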
